A study of Mus musculus with 2 samples.

Results

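The smooth muscle squares of the section labelled wild type (WT) are 246 small regions of irradiated mouse intestine chosen by their share of counts from 7 smooth muscle genes, the highest in that section. They were taken from 4917 squares of that section, and from 13202 squares in the whole series. A square has a side of 10 position units, a unit not given in the sources used here, and was kept with 1000 or more counts. The score of a square was the summed count of Acta2, Tagln, Myh11, Des, Actg2, Tpm2 and Cnn1 over all its counts, and the top 5% of squares were taken as members. Each square can hold several cell types or parts of cells.

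The series holds 1 section labelled Dpf2 knockout (KO, from DPF2 KO mice) and 1 labelled wild type (WT, from WT mice), and asks what DPF2, a subunit of the BAF chromatin remodelling complex, does in intestinal injury by radiation. Both were taken after 10 Gy of X-rays, and no unirradiated section was analysed here. Frozen tissue cut at 10 µm was laid on an array of barcoded spots that record RNA by position. Strain, sex, age, time after irradiation, stretch of gut, number of mice per section and the cells and part of Dpf2 that were deleted were, in the sources used here, not given. With 1 section per genotype no test between sections was possible, and because the score itself chose the squares, no test of squares against squares was made either.

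Smooth muscle of the gut wall forms an outer longitudinal and an inner circular layer, with a thinner sheet under the crypts. Its cells contract when calcium and calmodulin activate myosin light chain kinase, which phosphorylates the regulatory light chain of myosin so that it pulls on actin. Enteric neurons, glia and the pacemaker interstitial cells of Cajal lie between and within the layers. Muscle and the stroma beside it also release inhibitors of bone morphogenetic proteins, which act on the stem cells at the crypt base.

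The 7 genes of the score describe the squares and are no finding. Together they took 0.334% of the counts in smooth muscle squares and 0.0508% in the remaining squares, and the score of single squares ran from 0.225% to 0.716% with a median of 0.299%. Acta2, the actin of smooth muscle, had 797 counts per 1000000 counts (CPM) in smooth muscle squares and 126 CPM in the remaining squares. Actg2, the actin typical of visceral muscle, had 440.4 against 52.9 CPM, the largest log2 ratio of the 7 at 3.06. Ratios of the others lay between 2.59 for the intermediate filament gene Des and 2.76 for the tropomyosin Tpm2, with Tagln, Myh11 and Cnn1 at 2.73, 2.63 and 2.60. Acta2 was counted at least once in 95.1% of smooth muscle squares and 52.7% of the remaining ones, and Actg2 in 86.6% and 28.5%. All 7 markers were thus present, but on few counts: a smooth muscle square held a median of 23.5 marker counts, and 33 of the 246 held fewer than 10.

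The border of the group was gradual. The 3 squares just inside it had scores of 0.225338%, 0.225087% and 0.224719%, and the 3 just outside had 0.223747%, 0.223365% and 0.223063%. When each of the 7 genes was left out of the score in turn and the top 5% chosen again, between 86.2% and 93.5% of the 246 squares were chosen again. The gene left out stood between 2.38 (Des) and 2.88 (Actg2) on the log2 scale. The other genes of the score stayed in each choice, and all 7 are muscle markers. These values thus describe the score and are no independent support for the group. Depth was alike in both groups, with a median of 7449.5 counts per smooth muscle square and 7536 per remaining square.

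**Figure D1:**
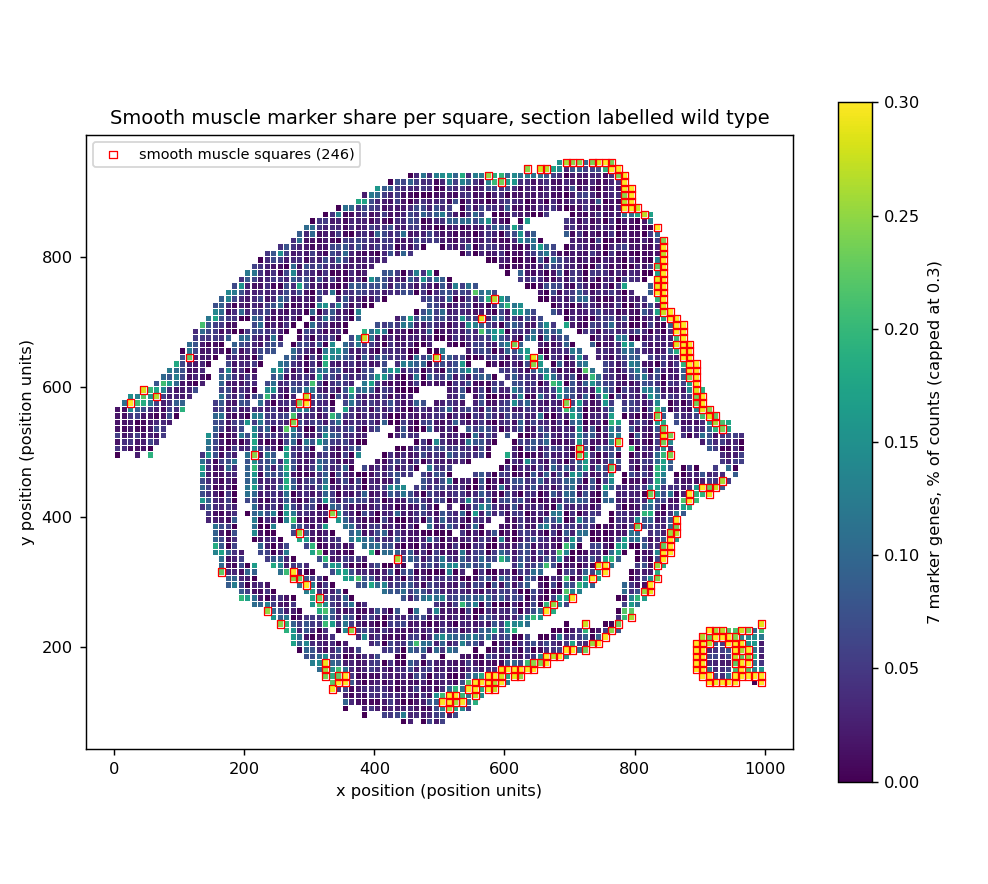
Map of the kept squares of the section labelled WT by x and y position, in squares of 10 position units; colour gives the marker share of counts in percent and outlines mark the 246 smooth muscle squares. They follow the outer rim on 1 side of the section and fill much of the small separate piece, where 47 of 92 squares are smooth muscle squares.

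The squares were not scattered evenly. They followed the outer rim of the section on 1 side, and 169 of the 246 (68.7%) touched the edge of the kept area, against 1444 of the 4671 remaining squares (30.9%). A small separate piece of tissue with 92 squares held 47 of them (51.1%), and the main piece held 199 of 4825 (4.12%). Most of them adjoined another, since 211 (85.8%) had at least 1 smooth muscle square among their 8 neighbours. They formed 56 connected patches, of which the largest held 49, 46 and 29 squares and 35 were single squares. For a spread within the section the squares were also split by position into 4 parts with 63, 61, 62 and 60 smooth muscle squares. These parts come from 1 section and are not replicates, and part 2 holds 3700 of the 4671 remaining squares, part 3 only 85. A ratio over the whole section thus mixes place with muscle and can lie outside the ratios within all 4 parts. Below it lay above all 4 for Mylk, Kcnj8, Rgs5, Grem1 and Il6, and within their range for Myl9, Abcc9, Hand2 and Lmcd1.

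Across genes outside the score, the contrast was sharp for a limited set. Over 11650 genes tested, those with at least 200 counts, smooth muscle squares were at least 2-fold higher in 520 (4.46%) and at least 2-fold lower in 1073 (9.21%), with a median log2 ratio of −0.27. The counting interval of the ratio lay wholly above 1 in all 520 (4.46%) and wholly below 1 in 997 of the lower genes (8.56%). In 303 of the higher genes (2.6% of those tested) all 4 parts of the smooth muscle squares lay above all 4 parts of the remaining squares, and in 291 of the lower genes (2.5%) they lay below. Scaling by the median of ratios moves every log2 ratio up by 0.27 and gives 822 higher and 514 lower genes, so the balance of directions rests on the scaling. In gene lists every member with 20 or more counts was counted, and among the 17616 genes with such counts 8.27% were at least 2-fold higher and 10.5% at least 2-fold lower, with a median of −0.21. Fewer cells of a type and less RNA per cell cannot be told apart in these sums.

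A CArG box is the sequence that serum response factor binds to drive contractile genes. Of the 15 highest named genes outside the score, 10 had a promoter window in the RefSeq table and 2 of these held the box, Myl9 and Lmcd1, whose promoters are printed because many values below turn on them. The windows run from 250 bases before to 50 bases after the start in the RefSeq promoter table of GRCm38.p6, on the plus strand at chr2:156775214-156775513 and chr6:112273508-112273807. Capitals mark the box, 2 C, 6 A or T and 2 G, which reads alike on both strands. It begins 161 bases before the start of Myl9 in the promoter table and 215 bases before that of Lmcd1. For Myl9 the start in the promoter table is not the gene start given below.
Myl9: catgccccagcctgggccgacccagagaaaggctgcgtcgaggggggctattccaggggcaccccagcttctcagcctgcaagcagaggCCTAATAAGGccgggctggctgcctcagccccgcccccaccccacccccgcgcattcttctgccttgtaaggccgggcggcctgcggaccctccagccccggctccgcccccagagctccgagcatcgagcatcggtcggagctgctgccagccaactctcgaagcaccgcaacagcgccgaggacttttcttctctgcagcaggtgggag
Lmcd1: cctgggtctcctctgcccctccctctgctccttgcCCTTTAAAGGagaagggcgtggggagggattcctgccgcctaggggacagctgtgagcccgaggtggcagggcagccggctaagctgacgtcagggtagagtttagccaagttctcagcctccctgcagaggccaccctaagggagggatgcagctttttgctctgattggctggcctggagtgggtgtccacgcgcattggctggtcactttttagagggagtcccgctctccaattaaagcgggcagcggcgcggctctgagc
The box occurred in 9 of the 374 higher genes with a window (2.41%), in 140 of 8701 tested genes (1.61%) and in 535 of all 32851 windows (1.63%), so the share among the higher genes stood near that of all windows. None of the 4 genes of the score with a window held it there.

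The contractile machinery outside the score was higher as a group. Of 22 measured genes of the contractile filaments, 14 were at least 2-fold higher in smooth muscle squares and 0 at least 2-fold lower, with a median log2 ratio of 1.33. The list summed to 4901 to 6304 CPM in the 4 parts of the smooth muscle squares and 2564 to 2989.5 CPM in the 4 parts of the remaining squares, with no overlap. Myl9, the regulatory light chain of smooth muscle myosin (chromosome 2, 156775408 to 156781657 on GRCm38), had 546, 661, 633 and 789 CPM in parts 1 to 4 of the smooth muscle squares, against 116, 103, 184 and 119.7 CPM in the same parts of the remaining squares. Every part of the smooth muscle squares was far above every part of the others, with a log2 ratio of 2.61 (95% interval 2.52 to 2.71, which, like all intervals here, covers counting error only). Mylk, the kinase that phosphorylates this light chain, had 755, 569.8, 826 and 780.1 CPM in the parts of the smooth muscle squares and 168, 136, 205 and 176 CPM in those of the remaining squares, again with no overlap, and a log2 ratio of 2.34. Ppp1r14a, the CPI-17 inhibitor of the phosphatase that opposes Mylk, stood at 2.24 and Pdlim3, a linker at actin anchor points, at 2.13. The essential light chain gene Myl6, used in many cell types, differed less, at 1239.9 against 832 CPM and 0.58. Within edge squares alone the list median was 0.93, so the 2-fold mark was not reached there.

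**Figure D2:**
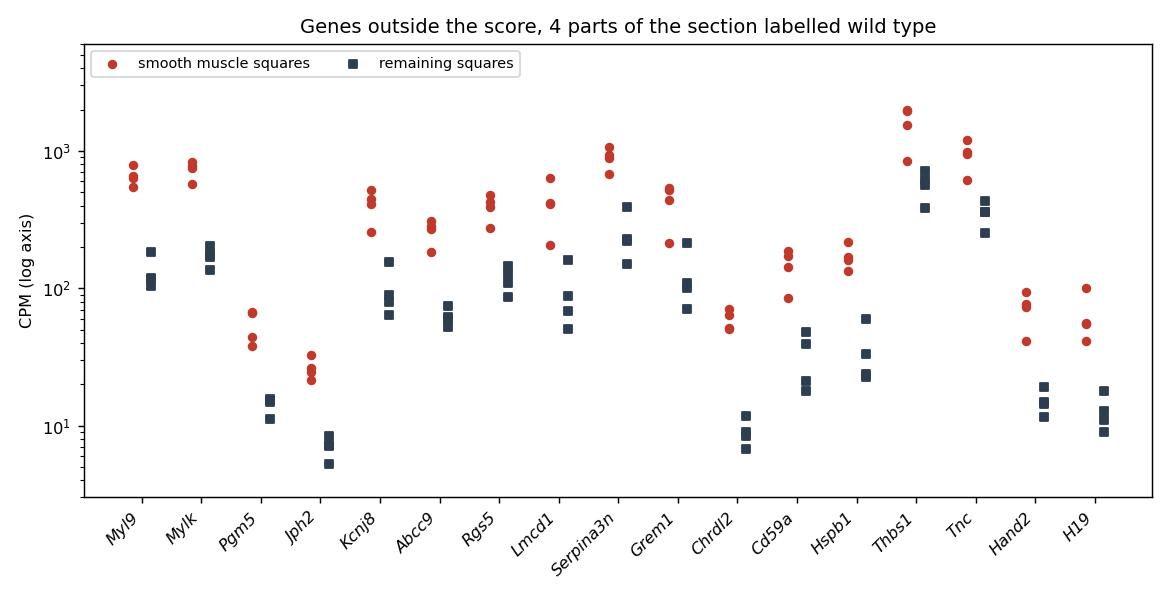
CPM on a log axis of genes that took no part in the score, each in the 4 parts of the smooth muscle squares (left of each pair) and of the remaining squares. For Myl9 and Mylk every part of the smooth muscle squares lies above every part of the remaining squares, whereas the parts of Grem1 touch, at 214 and 214 CPM.

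Genes that tie filaments to the membrane and to neighbouring cells were higher too. Of 21 measured genes of intermediate filaments and dense plaques, 12 were at least 2-fold higher and 1 lower (median 1.18), and the parts did not overlap at 1444 to 2171 CPM against 817 to 1064 CPM. Lims2, a partner of integrin-linked kinase, stood at 2.21, the laminin receptor subunit Itga7 at 2.20, and Pgm5, a component of actin junctions, at 2.14. The intermediate filament gene Vim had 237 against 58.3 CPM, a log2 ratio of 2.03, and Itgb1, the shared integrin chain, 571 against 251 CPM and 1.18. Caveola genes showed 4 of 10 higher and 0 lower (median 0.90), among them Cav1, the main caveola coat gene, at 1.59. When edge squares were left out Itgb1 stood at 0.96.

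Genes of calcium handling were higher in part. In all, 9 of 20 measured genes were at least 2-fold higher, against 0 lower (median 0.80), but the summed level differed little, at 1896 against 1708 CPM. Pln, which restrains the calcium pump of the sarcoplasmic reticulum, stood at 2.57 on 19 counts in smooth muscle squares, Jph2, which holds that reticulum to the cell membrane, at 2.20, and Casq2, a calcium store protein, at 1.98 on 9 counts. The L-type calcium channel Cacna1c had 88.6 against 26.9 CPM (1.72) and the pump Atp2a2 409.6 against 196 CPM (1.07). The ratio of Atp2a2 was under 2-fold in 5 of the 18 alternative settings, with a low of 0.92.

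Among channels, both subunits of 1 potassium channel were far higher. Kcnj8 (chromosome 6, 142564837 to 142571614), the pore Kir6.1, had 407, 256, 448 and 516 CPM in the 4 parts of the smooth muscle squares, against 79.1, 64.0, 154 and 89.1 CPM in those of the remaining squares. Its neighbour Abcc9 (chromosome 6, 142587862 to 142702766), the sulfonylurea receptor SUR2 that joins Kir6.1 in the ATP-sensitive channel, had 283, 184, 270.2 and 309.8 against 62.2, 52.3, 74.2 and 59.8 CPM. Neither gene's parts overlapped, and the log2 ratios were 2.54 (2.42 to 2.66) and 2.25 (2.10 to 2.39). Both are also markers of pericytes. Over the channel list, 9 of 19 measured genes were at least 2-fold higher, against 1 lower (median 0.98). They include Kcnmb1, the muscle subunit of the large-conductance calcium-activated potassium channel, at 2.59 on 32 counts. Trpc4 had 388 against 419 CPM, a ratio of −0.11.

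Receptor genes were mixed. Of 15 measured receptor genes of muscle, 6 were at least 2-fold higher and 3 at least 2-fold lower (median 0.43). The muscarinic receptor Chrm2, which receives acetylcholine from enteric neurons, stood at 2.34 on 50 counts and the substance P receptor Tacr1 at 1.74 on 68. P2ry1, a purine receptor of PDGFRA-positive interstitial cells, was lower at −1.65 on 8 counts, and the endothelin receptor Ednrb had 121 against 119 CPM. In the pathway by which nitric oxide relaxes muscle, 6 of 11 genes were at least 2-fold higher, against 0 lower, with a median of 1.002 that lay under 1 in 13 of the 18 alternative settings. The guanylate cyclase subunits Gucy1b1 and Gucy1a1, the sensors of nitric oxide, stood at 1.53 and 1.21, the phosphodiesterase Pde3a at 1.52 and Pde5a, which breaks down cyclic GMP, at 0.74. Within edge squares Tacr1 and Gucy1b1 both stood at 0.89, under the 2-fold mark.

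Transcription factors were higher in part. In the list built on serum response factor and myocardin, 6 of 18 measured genes were at least 2-fold higher, against 1 lower (median 0.66). Hand2 had 93.5, 41.6, 73.3 and 76.9 CPM in the 4 parts of the smooth muscle squares and 14.8, 11.5, 19.1 and 14.3 CPM in those of the remaining squares, with no overlap and a log2 ratio of 2.51. Its relative Hand1 stood at 2.12 and Meis2 at 2.03. Myocd, the coactivator that turns on contractile genes, stood at 1.99 on only 17 counts, and at 0.99 in squares of 5 position units. Foxf1, a factor of gut mesenchyme, had 119 against 60.4 CPM (0.98).

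**Figure D3:**
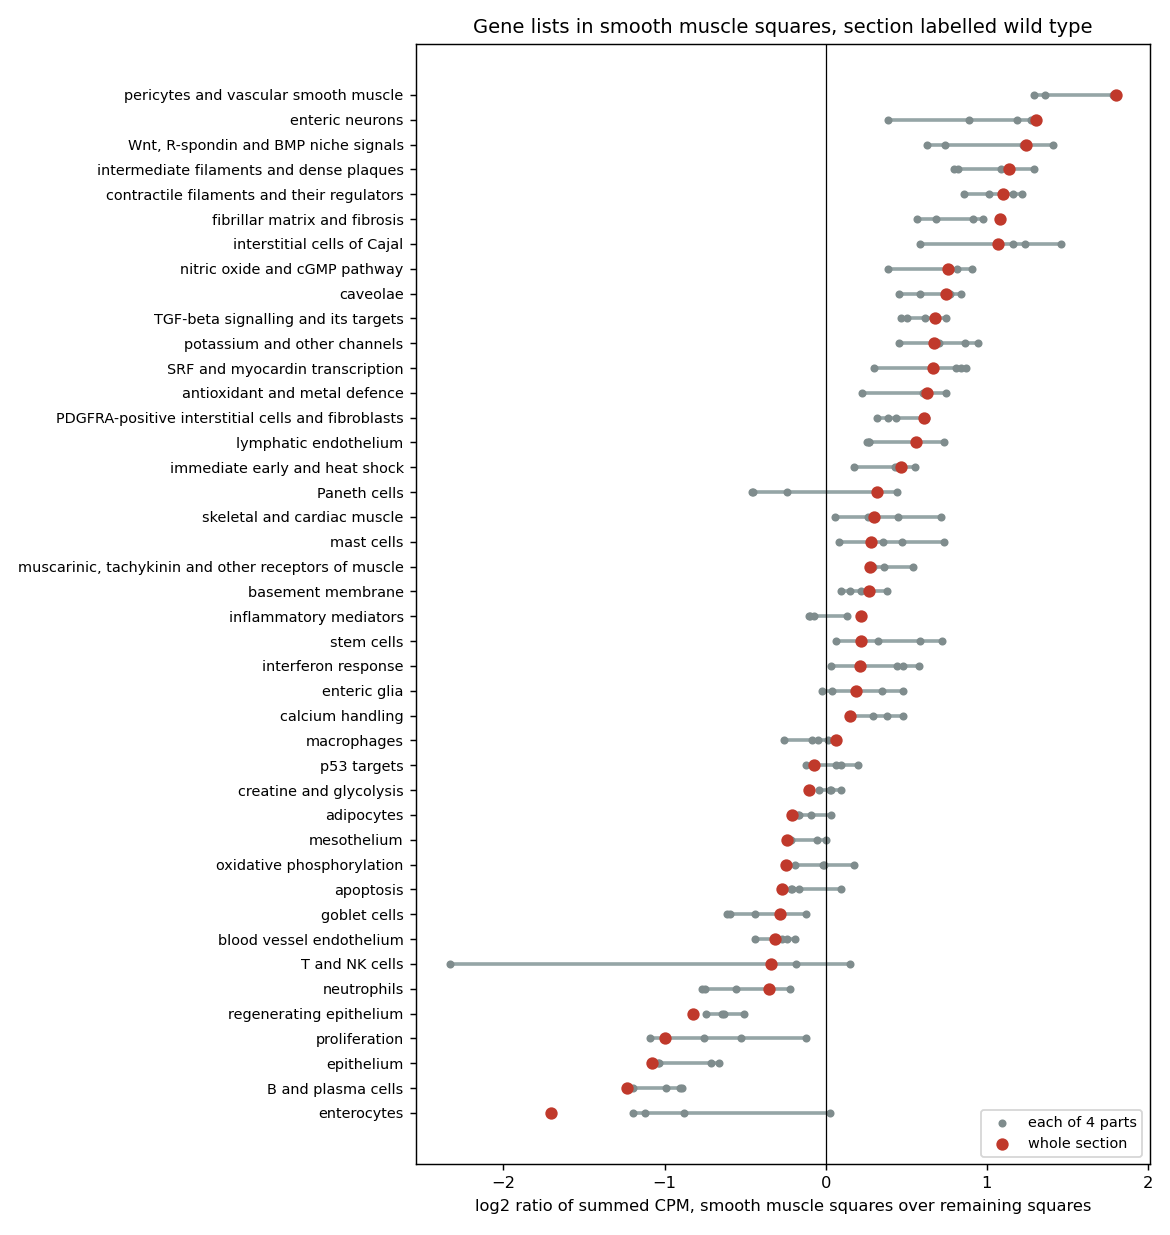
Log2 ratio of the summed CPM of each gene list, smooth muscle squares over the remaining squares, for the whole section (large points) and for each of the 4 parts (small points, joined by a line). The contractile list is at 1.102 and the enteric neuron list at 1.30, while the enterocyte list is lowest at −1.70, outside the range of its parts, −1.20 to 0.03.

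The highest ratios outside the score went to genes of several kinds. Chrdl2, an inhibitor of bone morphogenetic proteins (chromosome 7, 100006404 to 100034728), had 58.9 against 7.30 CPM and the highest named ratio, 3.01 (2.68 to 3.33). Cd59a, which blocks the last step of complement attack, stood at 2.87. Lmcd1, a cofactor with LIM domains known from heart and muscle (chromosome 6, 112273758 to 112330423), had 417, 206, 411 and 639 CPM in the 4 parts of the smooth muscle squares, against 68.2, 50.9, 160.4 and 88.5 CPM in those of the remaining squares. The lowest part of the smooth muscle squares, part 2, still lay above the highest of the others, and the ratio was 2.84 (2.72 to 2.96). The small heat shock proteins Hspb1 and Hspb7 stood at 2.81 and 2.75, and the imprinted noncoding RNA H19 (chromosome 7, 142575530 to 142578146) at 2.65 on 118 counts. Ldhb, the lactate dehydrogenase form of oxidative muscle, stood at 2.62, the phosphatase Ppm1l at 2.53, Tmem100 at 2.43 and the metalloreductase Steap4 at 2.42. Serpina3k and Serpina3n, acute phase protease inhibitors on chromosome 12, stood at 2.56 and 2.39. Reads of such close relatives can be split between them in counting, so their separate values are uncertain.

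Genes at the other end were rare ones. Insl6, Kif20b, Bmp5, Unc13d, Stk31 and Bbof1 each had 1 count in smooth muscle squares, Aadac, Clic6 and Cda 2, and Vstm5 3. Insl6 had 0.521 against 6.54 CPM, a log2 ratio of −3.65 with an interval of −8.96 to −1.16, and the other 9 lay between −3.63 and −2.78. The 5 others with 1 count had intervals nearly as wide, and Vstm5 had the narrowest, −5.11 to −1.27. Without edge squares Insl6 stood at −0.90, and with the top 2% of squares Clic6 stood at −0.996.

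Genes of cell types that live in the muscle layer were higher beside muscle genes. Of 21 measured markers of enteric neurons, 19 were at least 2-fold higher in smooth muscle squares and 0 lower, with a median of 1.42. The list summed to 1173 to 2123 CPM in the 4 parts of the smooth muscle squares and 534 to 1142 CPM in those of the remaining squares, with no overlap. The ratio of the sums within the parts ran over 0.39 to 1.27, and over the whole section it was 1.30, above that range. Phox2a, a transcription factor of autonomic neurons, stood at 1.60, the microtubule gene Map1b at 1.63, and the neuropeptides Gal and Vip at 1.33 and 1.25. Without part 2 the list median was 0.83, with Gal at 0.78 and Vip at 0.83, and within edge squares the list median was 0.69. Of 9 measured markers of interstitial cells of Cajal, 7 were at least 2-fold higher and 0 lower (median 1.66), including the chloride channel Ano1 at 1.66 and Gpr20 at 2.15. Their receptor Kit itself had 116 against 83.7 CPM, a ratio of 0.47, and its ligand Kitl 1.29. Glia markers had 5 of 9 at least 2-fold higher and 2 lower, but their sums were close, at 88.6 against 77.6 CPM (0.19, −0.04 to 0.41), with Sox10 at 1.44 on 8 counts, S100b at 1.41 on 7, and Erbb3 lower at −1.70. The glia median of 1.21 was 0.12 within edge squares, 0.79 without part 2 and 0.51 without part 3. Without part 2 Sox10 stood at 0.81 and S100b at 0.79. Map1b stood at 0.88 within edge squares, and Kitl at 0.76 when edge squares were left out.

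Markers of vessel walls were higher beside muscle genes, and those of vessel lining were not. For pericytes and vascular smooth muscle, 7 of 10 measured markers were at least 2-fold higher and 0 lower (median 1.62), and the list summed to 913 to 1562 CPM in the parts of the smooth muscle squares and 355 to 549 CPM in those of the others. Rgs5, a regulator of G protein signalling typical of pericytes, had 424, 273, 389.9 and 481 CPM in the 4 parts of the smooth muscle squares, against 109.9, 86.8, 146 and 127 CPM in those of the remaining squares. All 4 parts lay above, with a ratio over the whole section of 2.06 (1.94 to 2.17), above the ratio within each part. Of the 13 markers of blood vessel endothelium, 0 were at least 2-fold higher and 0 at least 2-fold lower (median −0.43), with Plvap at −0.79 and Flt1 at −0.86. Lymphatic endothelium had 0 and 0 of 7 (median 0.28), with Lyve1 at 0.97. The part of vessel wall cells in the muscle ratios was not tested.

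Mesothelium, the lining of the outer surface, gave a split answer. Of 9 measured markers 5 were at least 2-fold higher and 1 lower with a median of 1.36, while the list's summed level was slightly lower at 1914 against 2256 CPM. Most of that level was Igfbp5, an insulin-like growth factor binding protein. It was itself not lower, with 1411 against 1299 CPM, so the lower sum lay in the list's other genes. Gpm6a and Upk3b stood at 1.65 and 1.36 on 21 and 13 counts, and Msln, also made by damaged epithelium, at −1.07. The median was 0.09 without part 2. Skeletal and cardiac muscle markers summed to 41.7 against 33.9 CPM, with a median of −0.02, so genes of striated muscle were low in both groups. Ckm, the muscle creatine kinase, stood at 2.56 on 18 counts. PDGFRA-positive interstitial cells and fibroblasts had 5 of 13 measured markers higher and 2 lower (median 0.63). Adipocyte and mast cell markers had medians of −0.42 and −0.29 over 5 measured genes each. Msln stood at −0.55 without part 2. Upk3b was under 2-fold in 4 settings, at 0.96 without part 3, 0.98 within edge squares, 0.81 without edge squares and 0.86 without the small piece.

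Matrix genes were higher in part. The fibrillar matrix list had 7 of 25 measured genes at least 2-fold higher and 0 lower (median 0.59), and the summed level was 5782 against 2734 CPM. The parts overlapped, at 4034 to 6815 CPM and 2513 to 4173 CPM, with ratios of 0.57 to 0.98 within them. The ratio of the sums over the whole section was 1.08, above that range. Thbs1, thrombospondin 1, a matrix protein of wounds that activates latent TGF-beta, had 1979, 841, 1536 and 1967 CPM in the 4 parts of the smooth muscle squares, against 384 to 719 CPM in those of the remaining squares. The parts did not overlap and the ratio was 1.86 (1.80 to 1.91). Tnc, tenascin C, had 921 against 276 CPM (1.74), fibronectin Fn1 stood at 1.98, periostin Postn at 2.10 and lumican Lum at 2.002. Basement membrane genes differed little, with 1 of 15 at least 2-fold higher and 0 lower (median 0.43). The 1 gene past that mark was Lamb2, a laminin chain, at 1.62, while Col4a1 stood at 0.63 and Col18a1 at −0.80.

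Niche signals were mixed. In the list of Wnt, R-spondin and BMP niche signals 9 of 21 measured genes were at least 2-fold higher, against 2 at least 2-fold lower (median 0.46), and the sum was 921 against 389 CPM. Grem1, gremlin 1, an inhibitor of bone morphogenetic proteins (chromosome 2, 113748675 to 113758648), had 441, 214, 537 and 516 CPM in the 4 parts of the smooth muscle squares, against 101, 70.4, 214 and 109 CPM in those of the remaining squares. Within each part the smooth muscle squares were higher, but part 2 of the smooth muscle squares and part 3 of the remaining squares touched. The ratio over the whole section was 2.41 (2.30 to 2.52), above the ratio within each of the 4 parts. Chrd, chordin, an inhibitor of the same ligands, stood at 2.18 on 34 counts, the R-spondin Rspo1, which strengthens Wnt signals, at 2.23 on 10, and Dkk3 at 1.59. Bmp5, a ligand, was lower at −3.50 on 1 count. In the TGF-beta list 5 of 15 were at least 2-fold higher and 0 lower (median 0.72), with the ligand Tgfb2 at 1.75 and the coreceptor Tgfbr3 at 1.62.

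Genes of injury were higher for a few members and not for whole lists. Among inflammatory mediators 4 of 26 were at least 2-fold higher and 3 lower (median 0.17). Il6, an inflammatory cytokine, had 163, 53.01, 141 and 96.7 CPM in the 4 parts of the smooth muscle squares, against 82.6, 27.8, 102 and 35.1 CPM in those of the remaining squares. Its parts overlapped, and its ratio of 1.57 (1.35 to 1.78) was above the ratio within each of the 4 parts and was 0.82 without part 2. The monocyte attractants Ccl2 and Ccl7 stood at 1.41 and 1.59, whereas Ptgs2, the inducible cyclooxygenase, had 415 against 395 CPM (0.07). Spp1, osteopontin, stood at 1.66, with 0.81 when edge squares were left out, and the complement gene C3 at 1.45, with 0.92. Ccl2 stood at 0.99 without edge squares.

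Stress genes divided by kind. Immediate early and heat shock genes had 10 of 29 at least 2-fold higher and 0 lower (median 0.47), among them the small heat shock proteins Hspb6 and Hspb8 at 2.19 and 1.81, known for their abundance in muscle, while Junb stood at 0.22 and Dusp1 at 0.50. For antioxidant and metal defence, ratios lay below 0 in 12 of 21 members and above 0 in 9, around a median of −0.025. Upward, 3 members passed the 2-fold mark, and downward 0. The summed level of this list was nevertheless higher, at 13977 against 9039 CPM. The metal-binding genes Mt1 and Mt2 had 4201 against 1924 and 2551 against 1165 CPM, both at 1.13, and the ferritin gene Fth1 stood at 1.05. All 3 were under 2-fold when edge squares were left out, at 0.93, 0.87 and 0.93. Of 22 p53 targets 1 was at least 2-fold higher and 4 lower (median −0.28). Btg2, which slows the cell cycle, stood at 1.06, Cdkn1a, the cell cycle inhibitor p21, at 0.17, and the death gene Pmaip1 at −1.25. None of the 17 apoptosis genes and none of the 27 genes of oxidative phosphorylation was 2-fold apart, each with a median of −0.27. In glycolysis and creatine use 3 of 19 were higher, namely Ldhb, Ckm and the insulin-responsive glucose transporter Slc2a4 at 2.40. Interferon genes had 2 of 22 higher and 3 lower, with Ifitm3 at 1.12 and Isg15 at −1.13. Without part 2 Isg15 and Pmaip1 stood at −0.40 and −0.49, Btg2 was at 0.85 within edge squares, and Ifitm3 was at 0.91 with the top 10% of squares.

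Genes of epithelium and of dividing cells were lower in the squares, Paneth genes apart. Of 15 pan-epithelial markers 10 were at least 2-fold lower and 0 higher (median −1.07), with Cldn7, a tight junction gene, at −1.49 and the sums within the 4 parts at −1.03, −0.71, −0.66 and −1.04. All 14 enterocyte markers with a ratio were at least 2-fold lower (median −1.83), and the ratio of their sums within the 4 parts was −1.20, −1.12, 0.03 and −0.88. Without part 2 the median was −0.72 and the lipoprotein gene Apoa4 stood at −0.75, against −2.71 over the whole section. Proliferation genes had 13 of 26 at least 2-fold lower and 0 higher (median −0.999), with Mki67 at −1.61 and Top2a at −1.60. The ratio of their sums within parts 1 to 4 was −1.09, −0.52, −0.12 and −0.75, and the parts overlapped. The Paneth cell list summed to 140828 CPM in smooth muscle squares and 113013 CPM in the remaining squares, with 0 of 15 markers 2-fold apart in either direction and a median of 0.33. Within parts 1 to 4 the ratio of the sums was −0.46, 0.44, −0.45 and −0.24, so its sign depends on the part. Its defensins, such as Defa24 at 0.23 and Defa20 at 0.66, have close relatives whose reads can be split in counting. Paneth genes thus took a far larger share of counts in the smooth muscle squares than the 7 muscle genes did, and their part in the other values was not tested. Goblet markers had 0 of 10 higher and 3 lower (median −0.51), with the mucin gene Muc2 at −0.43.

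Stem cell markers had 2 of 11 higher and 2 lower (median −0.61). Their sum went the other way, at 1080 against 929 CPM (0.22, 0.15 to 0.28). Its parts did not overlap, at 979 to 1235 CPM in smooth muscle squares and 652 to 948 CPM in the remaining squares. Smoc2, which also marks stroma, had 436 against 132 CPM (1.73) and Lrig1 1.37, while Olfm4 stood at −1.31 and Rnf43 at −1.11. Regenerating epithelium had 8 of 17 markers lower and 1 higher, with Sprr2a3 at −1.14 and the growth factor Areg at −1.17. Immune lists differed little in their medians. Macrophage markers had 4 of 16 higher and 0 lower (median 0.33), neutrophil markers 0 and 2 of 13 (median −0.29), and T and NK cell markers 0 and 1 of 12 (median −0.20). F13a1 and Cd163, markers of tissue-resident macrophages, were among the higher ones at 1.67 and 1.49. Plasma cell genes were lower in sum, at 1795 against 4226 CPM, led by the IgA heavy chain Igha at −1.45. Olfm4 stood at −0.64 with the top 10% of squares and Lrig1 at 0.99 within edge squares.

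**Figure D4:**
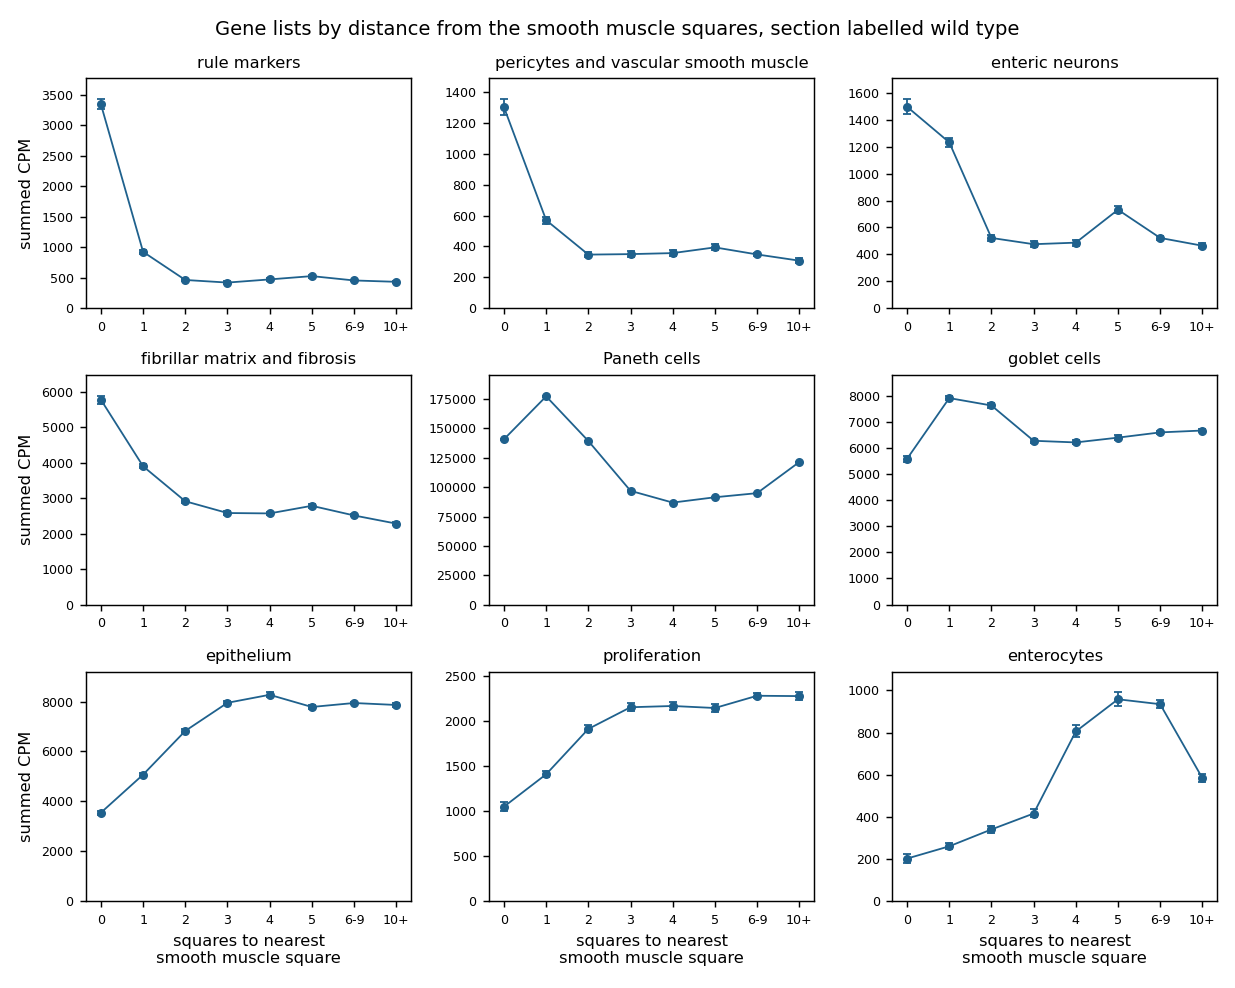
Summed CPM of 9 gene lists, 1 per panel (rule markers are the 7 genes of the score), against distance to the nearest smooth muscle square, in squares of 10 position units, with 95% counting intervals; 0 is the smooth muscle squares. The muscle genes of the score are at 3339.7 CPM at distance 0 and 921 CPM at distance 1, enteric neuron genes stay high over both, and Paneth genes peak at distance 1.

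Gene lists followed different courses with distance from the squares. The 7 genes of the score summed to 3339.7 CPM in the smooth muscle squares, 921 CPM 1 square away, 459.8 CPM at 2 and 417 CPM at 3, and the first of these values was fixed by the choice of squares. Lmcd1 had 410.2, 122 and 48.0 CPM at distances of 0, 1 and 2. Enteric neuron markers reached further, with 1499 and 1234 CPM at distances 0 and 1, 522 CPM at 2 and a second, lower maximum of 732 CPM at 5. Il6 had 111, 86.7, 45.3 and 27.8 CPM over distances 0 to 3. Paneth genes were highest next to the smooth muscle squares rather than in them, at 177327 CPM at distance 1 against 140828 CPM at 0, 86867 CPM at 4 and 121355 CPM at 10 or more. Pan-epithelial genes were higher further out, with 3547, 5072, 6823, 7950.2 and 8272 CPM over distances 0 to 4, and proliferation genes with 1052, 1412, 1916 and 2158 CPM over 0 to 3, after which they stayed between 2149 and 2285 CPM. Enterocyte genes were high over distances 5 to 9, with 202 CPM at 0, 416 CPM at 3 and 958 CPM at 5. They had 934 CPM at 6 to 9, with a counting interval that overlaps that at 5, and 584 CPM at 10 or more.

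Smooth muscle squares were also split by the score that had chosen them, into 123 with higher and 123 with lower scores. The genes of the score took 0.407% and 0.257% of counts, a log2 ratio of 0.66, which is under the 2-fold mark. Genes that follow the score differ here through the split itself, so their ratios are no independent finding. A small count of genes past 2-fold thus cannot show how alike the squares are. In the group with higher scores, 2 of 1208 genes tested (0.166%) were at least 2-fold higher and 0 at least 2-fold lower. These were Lamb2, with 62.0 against 19.3 CPM (1.69, 0.91 to 2.53), and Lmcd1, with 565 against 247 CPM (1.19, 0.97 to 1.42). Myl9 and Grem1 stood at 0.73 and 0.68 in this contrast, Igkc, the immunoglobulin light chain, at −0.99, and enteric neuron genes had a median of −0.04.

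Neuron genes and Lmcd1 were higher in large patches of smooth muscle squares than in scattered ones, and enterocyte genes lower. In the 3 patches with 20 or more squares (124 squares) against patches of 3 or fewer (57 squares), 13 of 839 tested genes (1.55%) were at least 2-fold higher and 6 (0.715%) at least 2-fold lower. Lmcd1 had 565 against 195 CPM (1.53, 1.19 to 1.89), Hspb7 stood at 1.30, Grem1 at 1.07 and Pde5a at 1.32. The neuropeptide Gal had 199 against 75.1 CPM (1.40), and 11 of 18 measured enteric neuron markers were at least 2-fold higher in the large patches and 0 lower (median 1.05). Among all 7832 genes with 20 or more counts here, 5.58% were at least 2-fold higher and 5.23% lower, with a median of −0.12. Enterocyte markers had 6 of 7 lower (median −1.33), proliferation genes 6 of 21 (median −0.74) and goblet markers 2 of 7 (median −0.26), each with 0 higher. Of single genes, the goblet cell gene Zg16 was lower at −1.84 and Rrm2, a ribonucleotide reductase of dividing cells, at −1.56. The score itself differed, at 0.354% of counts in the large patches and 0.268% in the scattered squares. Place at the edge or in the small piece was not separated from patch size. Lmcd1 stood at 2.01 in smooth muscle squares at the edge over those inside.

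The small separate piece differed little in Myl9, Mylk and Lmcd1. Its 47 smooth muscle squares stood over the 199 of the main piece at −0.17 (−0.37 to 0.03) for Myl9, 0.08 for Mylk and −0.10 for Lmcd1. The median for all tested genes was −0.20. Contractile filament genes summed to 5861 CPM in the small piece's squares and 5757 CPM in those of the main piece. Calcium handling genes were lower in the small piece, at 1682 against 1958 CPM, as were receptor genes of muscle, at 199 against 288 CPM. Larger gaps lay in Paneth and immune genes. The defensins Defa32 and Defa33 stood at 1.91 and 1.73, the antimicrobial lectin Reg3g at 0.96, and Ighm, the IgM heavy chain, at −3.20. The small piece's 45 remaining squares went further the same way, at 15602, 15899, 3889 and 3.93 CPM in that order. Its smooth muscle squares had 10156, 9905, 2224 and 9.27 CPM, and those of the main piece 2707, 2980, 1142 and 85.4 CPM. The gaps in these 4 genes were thus not confined to smooth muscle squares. These genes were chosen after their values were seen, as were those compared at the edge. Smooth muscle squares at the edge over those inside stood at 2.01 (1.73 to 2.31) for Lmcd1, 1.46 for the protease inhibitor Slpi and 0.46 for Myl9, around a median of 0.12. Set against their own kind of neighbours, edge smooth muscle squares over edge remaining squares gave 2.29 for Myl9 and 2.50 for Lmcd1, and inside squares gave 2.51 and 1.78.

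The same rule gave 414 of 8285 squares in the section labelled KO, where the 7 genes took 0.846% of counts, against 0.334% in the section labelled WT. Dpf2 itself (chromosome 19, 5896516 to 5912871) was not lower there, with 31.5 CPM in smooth muscle squares of the section labelled KO and 20.8 CPM in those of the section labelled WT, a log2 ratio of 0.59 (0.09 to 1.13). In the remaining squares it had 25.6 and 23.7 CPM. Without knowing which part of Dpf2 was deleted, these levels cannot check the label, and the directions that follow compare sections by their labels only. The sections share 45557 barcode names, which name array positions.

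Most genes higher in the smooth muscle squares of the section labelled WT were also higher in those of the section labelled KO. Of 11227 genes tested in both sections, 389 were at least 2-fold higher in the smooth muscle squares of both, 32.9% of the 1182 in the section labelled KO and 80.4% of the 484 in the section labelled WT. Only 60 were at least 2-fold lower in both, 46.5% of 129 and 6.08% of 987. In the section labelled KO 1562 of 13145 tested genes (11.9%) were at least 2-fold higher in smooth muscle squares than in the remaining squares and 301 (2.29%) lower. Myl9 stood at 2.75 over the remaining squares in the section labelled KO and 2.61 in the section labelled WT, Kcnj8 at 2.98 and 2.54, and Grem1 at 2.68 and 2.41. Lmcd1 stood at 1.14 and 2.84, and Serpina3n at 1.18 and 2.39.

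Levels in the smooth muscle squares differed widely between the sections. Over 5674 genes tested, the section labelled KO was at least 2-fold higher in 1404 (24.7%) and at least 2-fold lower in 334 (5.89%), around a median of 0.40. Contractile genes were higher, with 14 of 22 past 2-fold and 0 lower (median 1.45), where 23.8% of all genes with 20 or more counts were higher and 8.77% lower. The lowest score of a smooth muscle square was 0.597% in the section labelled KO and 0.225% in the section labelled WT. Genes that follow the score can differ between the sections through this choice, so their ratios are no independent finding. The contractile list summed to a log2 ratio of 1.339, and the 7 genes of the score to 1.340. Myl9 had 1949.8 CPM in the section labelled KO and 659 CPM in the section labelled WT, and Pdlim3 214 and 39.1 CPM. Oxidative phosphorylation genes had 18 of 28 higher and 0 lower (median 1.18). Pcp4, a calmodulin-binding peptide, had 216 and 10.4 CPM, a ratio of 4.37.

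Genes of inflammation, and some of the matrix, were lower. Inflammatory mediators in the section labelled KO had 21 of 24 measured genes at least 2-fold lower and 0 higher (median −3.82). Il6 had 0 counts in the smooth muscle squares of the section labelled KO and 111 CPM in those of the section labelled WT, at least 188-fold lower against a floor of 3 counts. Thbs1 had 49.0 and 1543 CPM, a ratio of −4.98 (−5.17 to −4.79). Lmcd1 had 8.65 CPM in the section labelled KO and 410.2 CPM in the section labelled WT (−5.57), Serpina3n 8.06 and 888 CPM (−6.78), and Kcnj8 41.1 and 402 CPM (−3.29), whereas its partner Abcc9 stood at −0.59. Chrdl2, H19 and Tmem100 stood at −3.02, −3.20 and −3.81.

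**Figure D5:**
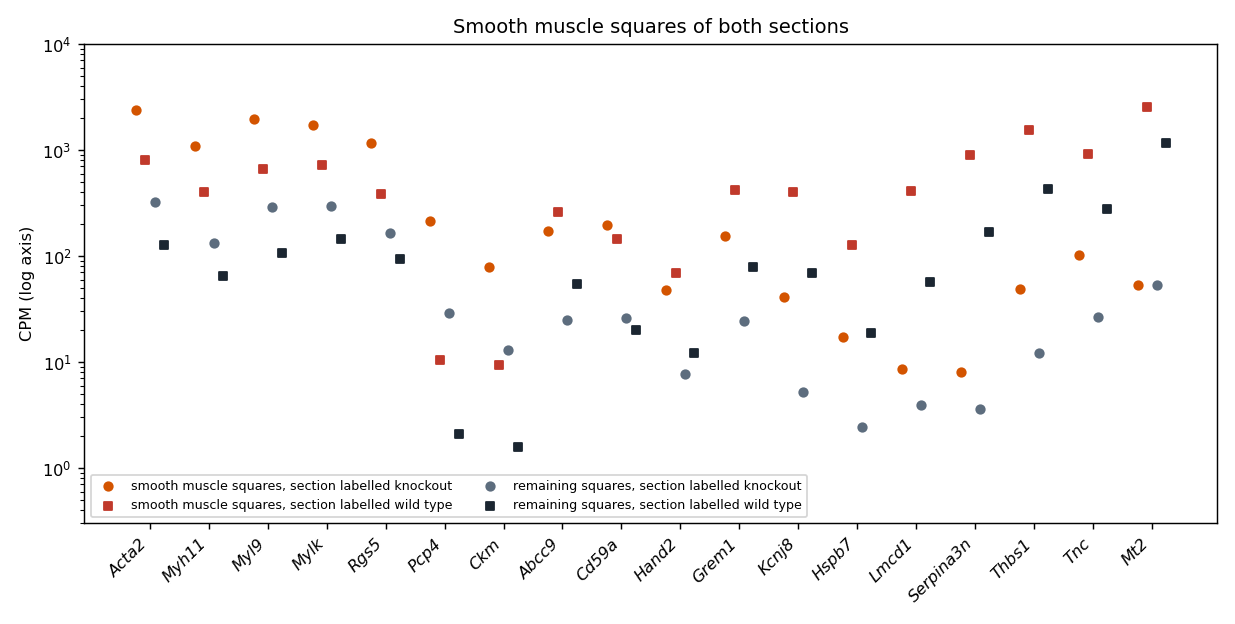
CPM on a log axis of named genes in smooth muscle squares and in the remaining squares of the section labelled KO and of the section labelled WT. Myl9 is higher in the smooth muscle squares of the section labelled KO, at 1949.8 against 659 CPM, and Lmcd1 lower, at 8.65 against 410.2 CPM.

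The remaining squares showed gaps of the same direction. There the section labelled KO stood over the section labelled WT at −3.86 for Lmcd1, −5.56 for Serpina3n, −5.13 for Thbs1, −3.73 for Kcnj8 and 1.43 for Myl9. Other lists also differed in the smooth muscle squares, where Paneth markers summed to 11589 CPM in the section labelled KO and 140828 CPM in the section labelled WT, enterocyte markers to 18048 and 202 CPM, adipocyte markers to 1345 and 139 CPM and neutrophil markers to 28.1 and 529 CPM. The part of these cells in the gaps was not tested, and genotype, animal and place in the gut cannot be told apart.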

How the data were processed

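Per the labels' protocols, frozen 10 µm sections were placed on a barcoded array and the barcodes under tissue were kept after its spots had been aligned to a picture of the tissue. The authors deposited counts, whole numbers for each gene and barcode without normalisation. As deposited, the position files give each barcode an x and a y score, its place on the array. The submitters' processing notes name the build GRCm38. The sources used here do not name the aligner, the counting tool, the strand setting or any use of molecular identifiers, so intervals and floors cover counting error only. In the section labelled KO lie 88056 barcodes with 89754886 counts and in the section labelled WT 50970 with 39824941. Of 54658 symbols, 37720 (69.0%) matched RefSeq. The 2041 genes of chromosome X and 334 of Y hold 0 counts in both and are not analysed here.

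Counts were summed over squares and expressed as CPM of each group's total. Each ratio has an exact conditional binomial interval (Clopper-Pearson) at 95%, and a group at 0 was set to a floor of 3 counts, 0.590 CPM in smooth muscle squares of the section labelled KO and 1.56 CPM in those of the section labelled WT. Genes at 200 or more counts were tested against a 2-fold mark, with no p-value, and members of the 43 gene lists at 20 or more. A list counts genes other than the 7 of the score. An edge square has at least 1 of its 8 neighbours not kept. On simulated counts with the totals of the smooth muscle and remaining squares and 11650 genes, 100% of 100 genes set 4-fold higher and 99% of 100 set to 0.25-fold were called, as were 0.0262% (higher) and 0.542% (lower) of unchanged genes. The simulated counts held counting error alone, without variation between squares or places, so these shares are no error rates for the section. The members and lists were chosen with earlier results of these data known.

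Genes were named by rule: the 7 of the score, the 15 highest and 10 lowest ratios with the same direction in all 4 parts, per list the 2 most abundant members and up to 4 largest ratios on 50 or more counts, and the 8 highest and 8 lowest ratios between sections. Predicted, ribosomal protein and haemoglobin genes and variable immunoglobulin and T cell receptor segments were left out. Any other gene named, such as Dpf2, was chosen for the question or after its values were seen. A few genes that the rule names are not reported here. Alternatives covered the square size and threshold, the grid origin, scaling, filters, the remaining squares and each part left out. Python 3.11.15 with numpy 2.4.6, scipy 1.17.1, pandas 2.3.3 and matplotlib 3.10.9 was used.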

Additional observations from a re-analysis of the deposited data

Results flagged for a closer look

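Of 11227 genes tested in both sections, 11 were at least 2-fold apart between smooth muscle squares and remaining squares in opposite directions in the sections. Only genes whose counting interval excluded a ratio of 1 in both sections were counted. The difference between the sections was not tested. Socs3, an inhibitor of cytokine signalling, stood at −1.04 on the log2 scale in the section labelled KO and 1.02 in the section labelled WT. The other 10 were higher in the smooth muscle squares of the section labelled KO and lower in those of the section labelled WT. In the section labelled WT 7 of these rest on 5 to 11 counts in smooth muscle squares, namely Mettl7a1, Rpp40, Hr, Slc45a4, Vmac, Tead2 and Fbxo21, with wide counting intervals, such as −3.34 to −0.96 for Mettl7a1 and −2.62 to −0.02 for Vmac. Nde1 rests on 30 counts there, Mt3 on 55 and Msln on 104. Mettl7a1 stood at 1.36 in the section labelled KO and −2.01 in the section labelled WT, and Rpp40, a subunit of ribonuclease P, at 1.03 and −1.69. Hr stood at 1.39 and −1.60, Slc45a4 at 1.19 and −1.35, the metallothionein Mt3 at 1.46 and −1.33, and Vmac at 1.08 and −1.17. Tead2, a factor of the Hippo pathway, stood at 1.24 and −1.09, Msln at 2.69 and −1.07, Nde1 at 1.08 and −1.06, and Fbxo21 at 1.39 and −1.03.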

How the results depend on the processing

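The main counts are 520 higher and 1073 lower genes in smooth muscle squares. Leaving out each part of the section in turn gave 222 to 482 higher and 254 to 1162 lower genes, with the lowest of both (222 and 254) without part 2, where 5977 genes were tested against 11650 in the main setting (3.71% against 4.46% higher, 4.25% against 9.21% lower). Taking the top 2% of squares gave 1904 lower genes and the top 10% gave 449. Scaling by the median of ratios gave 822 higher and 514 lower genes, and a filter of 20 counts gave 1457 and 1848 of 17616 tested (8.27% and 10.5%). Within edge squares, an alternative chosen after seeing the data like those without edge squares and without the small piece, there were 167 and 394 of 6616 (2.52% and 5.96%). Other settings for size, depth, grid and scaling stayed within 1.5 times the main counts. Of 42 list medians, 10 were past 2-fold, and 3 of these stayed past it under all 18 settings. Of 134 gene ratios, 110 were past 2-fold and 70 stayed so. No ratio past 2-fold changed sign. Causes were not tested. No paired analysis was possible because each genotype has 1 section and no test was made. Depth limits single squares, with a median of 23.5 marker counts, and genes on few counts in the smooth muscle squares.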
